A study of Mus musculus with 6 samples.

Results

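Ribosomal and small noncoding RNAs were followed here in HL-1, a mouse cell line of atrial heart muscle origin. The set was chosen by symbol and holds 9 of the 22913 genes with counts. A group called ribosome-locus transcripts in the selection holds Yam1, Lars2, Gm26917 and Rn18s-rs5. For Lars2, a protein-coding gene on chromosome 9, that name is only the label of the group. The others are the mitochondrial ribosomal RNAs mt-Rnr1 and mt-Rnr2, and the RNA polymerase III transcripts Rmrp, Rn7sk and Rpph1. The set was chosen with the difference between control and HSPA1A in these same libraries in view. The fold changes of the 9 RNAs are therefore a description and carry no test. All 9 had enough counts to be among the 12827 genes tested.

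The control group held 3 libraries of cells given a control plasmid, and the HSPA1A group 3 libraries of cells given a plasmid to overexpress HSPA1A, which the labels describe as the human gene. HSPA1A is a stress-inducible chaperone of the HSP70 family. The labels name Lipofectamine 2000 as the reagent, DMEM with 10% fetal bovine serum as the medium and harvest at 48 h. They give no allele, and all cells are the same line. The libraries were made from polyadenylated RNA with a stranded kit, and they held 23849656 to 26897086 counts.

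Several facts of the libraries bear on all values below. HSPA1A replicate 2 stood apart from its group on the first principal component, which held 34.3% of the variance. That replicate lay at -15.1, on the side of the control libraries (-8.27 to -4.33) and beyond all of them. HSPA1A replicates 1 and 3 lay at 15.9 and 18.3. The ratio between the groups is therefore also given without HSPA1A replicate 2 for each of the 9 RNAs. The counts of mouse Hspa1a were 10, 17 and 11 in the control and 17, 20 and 11 in the HSPA1A libraries (log2 fold change 0.39 ± 0.35 SE, Benjamini-Hochberg adjusted p = 0.795 in edgeR). A count on a mouse gene measures a transcript of a human plasmid only as far as its reads align there, and reads can be shared with the near-identical Hspa1b. Hspa1b had 75, 76 and 66 counts in the control and 56, 94 and 74 in the HSPA1A libraries (log2 fold change 0.10 ± 0.18 SE, edgeR adjusted p = 0.902). No library copied another: the chi-square of any pair, per degree of freedom, was at least 2.68. Of 20 heart muscle markers, 15 had counts and 9 reached 1 CPM (counts per 1000000 counts of the library). Myh6, Nppa, Myl7, Pln and Sln were not among the genes with counts. Des stood at 614, Atp2a2 at 480 and Tnnt2 at 40.6 CPM, while Myh7, Actn2, Actc1 and Tnni3 were below 0.05 CPM. Of the fibroblast markers, Col3a1 (457 CPM) and Col1a2 (299 CPM) were the highest, Pdgfra was at 3.91 CPM and Thy1 and Lum were below 0.05 CPM. None of 5 endothelial markers reached 1 CPM. The summed heart muscle markers ran from 1200 to 1260 CPM in control and from 1050 to 1200 CPM in HSPA1A libraries. The fibroblast markers ran from 864 to 892 CPM in control and from 768 to 933 CPM in HSPA1A libraries. The part of these in the results was not tested. In bulk RNA, fewer cells of a type and less RNA per cell cannot be told apart.

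Ribosomal RNA of the cytoplasm is copied by RNA polymerase I as one long precursor, from which the small- and large-subunit rRNAs are cut and the spacers removed. Mitochondria make their own pair of rRNAs from their circular genome. RNA polymerase III makes short structured RNAs that end in a run of U, among them the RNAs at the core of RNase MRP, RNase P and the 7SK particle. Most of these RNAs lack the long poly(A) tail by which a polyadenylated library is selected, although mitochondrial rRNAs carry short tails.

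The 3 transcripts on chromosome 17 lie side by side. All positions and sequences are those of GENCODE M21 on the build GRCm38. Gm26917 occupies chr17:39843013-39846341 on the plus strand as a single exon annotated as a lincRNA. The rRNA transcript of Rn18s-rs5 (chr17:39846353-39848201, minus strand) lies 11 bases beyond its end. Yam1 (named Gm42418 in this annotation) occupies chr17:39846958-39848788 on the plus strand, again as 1 exon of a lincRNA. Yam1 and Rn18s-rs5 share 1244 bases on opposite strands with 100.0% identity. Against that transcript, which has the 1849 bases implied by the deposited FPKM, 587 bases belong to Yam1 alone and 605 to Rn18s-rs5 alone. The gene as annotated here runs on to base 39848827, through another transcript, and so spans all of Yam1. The lincRNA AY036118 lies within the shared part on the minus strand and was not analysed here.

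The point where the shared part ends is shown first, because it marks the end of the mature rRNA within Yam1. The stretch is bases 1215 to 1264 of the Yam1 transcript, 5′ to 3′, with the bases shared with Rn18s-rs5 in capitals.
Yam1: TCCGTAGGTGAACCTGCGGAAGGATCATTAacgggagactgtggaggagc
The capitals close with the bases that are known as the conserved end of the small-subunit rRNA in its sense orientation. Yam1 therefore carries the sense strand of the latter part of that rRNA and then runs on into spacer. Rn18s-rs5 is annotated on the opposite strand.

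Among the other 35 pairs of the 9 RNAs, the longest identical stretch on either strand was 15 bases. It joined Yam1 to mt-Rnr1, the mitochondrial small-subunit rRNA, close to the end of each mature rRNA. Rn18s-rs5 also shared 15 bases with mt-Rnr1, on the other strand. The bases shared by Yam1 and mt-Rnr1 are in capitals, at Yam1 1199 to 1213 and mt-Rnr1 911 to 925.
Yam1: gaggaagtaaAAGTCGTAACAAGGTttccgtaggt
mt-Rnr1: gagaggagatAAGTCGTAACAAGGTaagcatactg
Lars2 shared at most 14 bases in a row with any of the others. Lars2 (chr9:123366927-123462666, plus strand, 21 exons) encodes the mitochondrial leucyl-tRNA synthetase, so neither its annotated position nor a shared stretch places it at the chromosome 17 locus. Large-subunit rRNA was not compared here.

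The polymerase III transcripts are single-exon genes. Rmrp is the RNA of RNase MRP, which cuts the rRNA precursor, and lies at chr4:43492788-43493058 on the minus strand. A lincRNA gene also named Rmrp (chr4:43492783-43493063, same strand) covers all 271 bases of it and is not among the genes with counts. The part of this overlap in the counts was not tested. Rpph1 is the RNA of RNase P, which trims the leader of tRNA precursors, and lies at chr14:50807449-50807767 on the minus strand. Rmrp is printed whole and Rpph1 from base 1 to 280, because each shares a stretch with a transcript of a protein-coding neighbour, and reads there could be counted for either. In Rmrp the capitals (bases 36 to 159) mark the 124 bases that lie on the other strand of a Ccdc107 transcript. In Rpph1 the capitals (bases 36 to 268) mark the 233 bases that are also in a Ccnb1ip1 transcript on the same strand.
Rmrp: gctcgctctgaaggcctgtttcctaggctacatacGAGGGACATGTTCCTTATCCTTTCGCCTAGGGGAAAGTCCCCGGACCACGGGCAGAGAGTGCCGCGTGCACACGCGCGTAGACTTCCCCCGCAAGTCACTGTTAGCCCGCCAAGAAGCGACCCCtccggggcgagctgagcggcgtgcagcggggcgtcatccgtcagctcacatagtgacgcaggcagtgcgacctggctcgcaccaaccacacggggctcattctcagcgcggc
Rpph1: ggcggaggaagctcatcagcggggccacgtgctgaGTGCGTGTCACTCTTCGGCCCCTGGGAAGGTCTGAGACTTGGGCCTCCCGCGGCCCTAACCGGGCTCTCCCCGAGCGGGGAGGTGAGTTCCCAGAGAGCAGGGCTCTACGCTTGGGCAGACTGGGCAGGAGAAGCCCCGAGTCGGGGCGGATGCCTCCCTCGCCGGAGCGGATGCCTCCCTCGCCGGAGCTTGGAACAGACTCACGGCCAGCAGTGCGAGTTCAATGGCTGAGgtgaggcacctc
Rn7sk, the RNA of the 7SK particle that holds the transcription factor P-TEFb inactive, lies at chr9:78175303-78175633 on the minus strand. Its last 40 bases are shown for the T-rich end of a polymerase III transcript, with the final 3 T in capitals.
Rn7sk: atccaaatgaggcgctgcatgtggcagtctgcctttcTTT

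**Figure D1:**
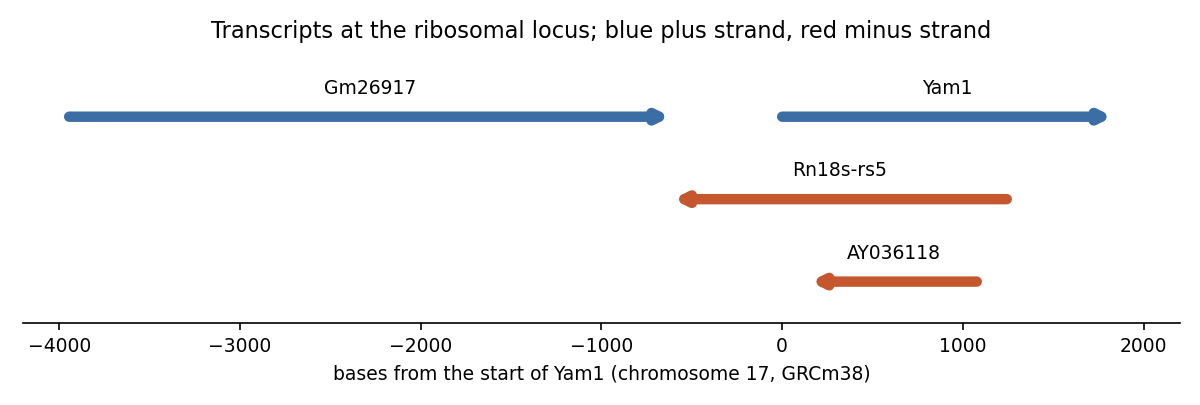
Map of the transcripts on chromosome 17 by distance in bases from the start of Yam1. Arrows point in the direction of transcription, blue on the plus and red on the minus strand. Yam1 and the rRNA transcript of Rn18s-rs5 overlap over 1244 bases, and Gm26917 ends 11 bases before that transcript.

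Capture on an oligo(dT) primer can also occur at A-rich stretches inside an RNA, so the longest run of A was counted in each transcript. It was 7 bases in mt-Rnr2, 6 in Yam1 and Lars2, 5 in mt-Rnr1, 4 in Gm26917 and Rn18s-rs5, 3 in Rmrp and Rn7sk and 2 in Rpph1. The median over the 12781 tested genes with a transcript was 6. Among transcripts within 20% of its length, 49.0% had a run at least as long as that of Yam1 and 23.1% one at least as long as that of mt-Rnr2. For Gm26917, Rn18s-rs5 and the polymerase III transcripts, 95.8% to 100.0% of like-length transcripts held a run as long or longer. For the polymerase III transcripts only 24 to 63 transcripts were of like length. The part of such runs in the levels was not tested. The runs of Yam1 and mt-Rnr2 are shown in capitals.
Yam1: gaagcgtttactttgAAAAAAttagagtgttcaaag
mt-Rnr2: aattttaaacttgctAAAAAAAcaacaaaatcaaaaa

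Yam1 had more counts than any other gene in these libraries. It stood at 18600, 11800 and 12300 CPM in control replicates 1 to 3 and at 27000, 15800 and 25300 CPM in HSPA1A replicates 1 to 3. HSPA1A replicates 1 and 3 were above every control library, while HSPA1A replicate 2 was below control replicate 1, so the groups overlapped. The means were 14200 ± 3790 and 22700 ± 6040 CPM (SD, n = 3 each), a ratio of 1.6 and a log2 fold change of 0.72 ± 0.21 SE. Without HSPA1A replicate 2 the ratio of the means was 1.84, and that replicate alone was 1.11 times the control mean. Per length, Yam1 ranked 5 among all genes by mean FPKM (fragments per kilobase, scaled to library size), with 6026 to 9421 FPKM in control and 8051 to 13470 FPKM in HSPA1A libraries.

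Lars2 followed Yam1 closely. Its levels were 4020, 2850 and 2900 CPM in the control and 7090, 3790 and 5600 CPM in the HSPA1A libraries, in the same order of libraries as Yam1. The groups overlapped through HSPA1A replicate 2, which was below control replicate 1. The means were 3260 ± 658 and 5490 ± 1650 CPM (SD, n = 3 each), and the log2 fold change was 0.79 ± 0.20 SE. The ratio of the means was 1.69, or 1.95 without HSPA1A replicate 2. The counts of Lars2 per 100 counts of Yam1 lay between 21.6 and 26.2 in all 6 libraries, a range of 1.21-fold where Yam1 itself ranged 2.3-fold. The other 16 mitochondrial aminoacyl-tRNA synthetases were far lower: their mean levels ran from 1.15 FPKM (Pars2) to 16.4 FPKM (Rars2), with a median of 3.61, while Lars2 stood at 1040 FPKM. That is 63.6 times the highest and 288 times the median of this enzyme family. The median log2 fold change of those 16 genes was -0.042, beside 0.0029 for all tested genes.

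Gm26917 lies where the leading external spacer of the rRNA precursor would lie, before the small-subunit rRNA. It was found at 651, 467 and 437 CPM in the control and at 913, 542 and 658 CPM in the HSPA1A libraries. HSPA1A replicate 1 was the highest and HSPA1A replicate 2 lay below control replicate 1. The means were 518 ± 116 and 704 ± 190 CPM (SD, n = 3 each), with a log2 fold change of 0.48 ± 0.19 SE, or 0.25 without HSPA1A replicate 1. The ratio of the means was 1.36, or 1.52 without HSPA1A replicate 2. Against Yam1 it took a smaller share in every HSPA1A library: 3.38, 3.43 and 2.6 counts per 100 Yam1 counts, beside 3.50, 3.97 and 3.55 in control. Per length it was 45.8 to 70.0 times lower than Yam1.

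Rn18s-rs5 did not keep to this pattern. Its levels were 127, 63.0 and 107 CPM in the control and 176, 62.8 and 201 CPM in the HSPA1A libraries. HSPA1A replicate 2 was the lowest of all 6, at 0.635 times the control mean, while the other HSPA1A libraries were the highest. The means were 98.9 ± 32.6 and 147 ± 73.7 CPM (SD, n = 3 each), with a log2 fold change of 0.61 ± 0.37 SE. It was 0.98 without HSPA1A replicate 2, 0.30 without HSPA1A replicate 3 and 0.37 without control replicate 2. The ratio of the means was 1.48, or 1.91 without HSPA1A replicate 2. Its counts per 100 Yam1 counts ran from 0.397 to 0.868, a 2.19-fold range with overlapping groups. Per length it stood 116 to 254 times below Yam1, although 1244 of its 1849 bases are the other strand of Yam1. The sources used here do not give the strand setting of the counting, so reads of the shared part cannot be told apart between the strands.

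The mitochondrial rRNAs lie next to each other on chromosome M, mt-Rnr1 at bases 70 to 1024 and mt-Rnr2, the large-subunit rRNA, at bases 1094 to 2675. mt-Rnr1 stood at 986, 516 and 609 CPM in the control and at 1030, 706 and 997 CPM in the HSPA1A libraries. mt-Rnr2 stood at 1410, 772 and 889 CPM in the control and at 1490, 1040 and 1460 CPM in the HSPA1A libraries. Control replicate 1 was nearly as high as HSPA1A replicates 1 and 3, and HSPA1A replicate 2 equalled the control mean within 1.02-fold for both. The log2 fold changes were 0.41 ± 0.22 SE for mt-Rnr1 and 0.41 ± 0.21 SE for mt-Rnr2. They were 0.74 and 0.72 without control replicate 1, and 0.23 and 0.24 without control replicate 2. Without HSPA1A replicate 2 the ratio of the means was 1.44 for both. The pair moved almost as one: mt-Rnr1 had 66.9 to 69.8 counts per 100 counts of mt-Rnr2, a 1.04-fold range.

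The mitochondrial mRNAs, which are cut from the same long precursors, had another order of libraries. They took 6.03%, 5.59% and 5.75% of counts in the control and 5.14%, 5.59% and 5.70% in the HSPA1A libraries. The mitochondrial rRNAs came to 3.97, 2.31 and 2.6 counts per 100 mitochondrial mRNA counts in control and 4.88, 3.13 and 4.30 in HSPA1A libraries, so that HSPA1A replicates 1 and 3 were the highest and the groups overlapped. None of the 13 mitochondrial mRNAs passed edgeR's test in either direction, and their median log2 fold change was -0.042. mt-Nd1, a subunit of respiratory complex I, was the most abundant per length, with a log2 fold change of -0.09 ± 0.06 SE (adjusted p = 0.734).

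Rmrp showed the largest ratio between the groups among the 9 RNAs, from low counts. It had 61, 27 and 43 counts in the control and 172, 105 and 126 counts in the HSPA1A libraries, which is 2.31, 1.10 and 1.65 CPM against 7.21, 3.90 and 5.07 CPM. Every HSPA1A library was above every control library. The means were 1.68 ± 0.604 and 5.4 ± 1.68 CPM (SD, n = 3 each), a ratio of 3.2 and a log2 fold change of 1.70 ± 0.29 SE. The ratio was 3.64 without HSPA1A replicate 2 and 2.32 for that replicate alone. Ccdc107, the gene on its other strand, had 826, 795 and 923 counts in control and 833, 818 and 850 counts in HSPA1A libraries (log2 fold change 0.04 ± 0.08 SE).

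Rn7sk had 280, 168 and 167 counts in the control and 372, 341 and 476 counts in the HSPA1A libraries. In CPM these were 10.6, 6.85 and 6.40 against 15.6, 12.7 and 19.2, again without overlap. The log2 fold change was 1.03 ± 0.20 SE, and the ratio of the means was 1.99, or 2.19 without HSPA1A replicate 2. Rpph1 was close to the lower limit of the tested genes, with 20, 15 and 19 counts in the control and 27, 43 and 31 counts in the HSPA1A libraries. Its groups did not overlap either, and HSPA1A replicate 2 was its highest library. The log2 fold change was 0.96 ± 0.25 SE, and the ratio of the CPM means was 1.9, or 1.7 without HSPA1A replicate 2. Ccnb1ip1, which shares sequence with it, had 16, 14 and 17 counts in control and 9, 13 and 14 in HSPA1A libraries (log2 fold change -0.32 ± 0.30 SE).

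The polymerase III transcripts did not all keep a fixed ratio to each other or to Yam1. Rmrp had 21.8, 16.1 and 25.7 counts per 100 Rn7sk counts in control and 46.2, 30.8 and 26.5 in HSPA1A libraries, so the HSPA1A libraries were higher, by little for replicate 3. Rpph1 had 6.51 to 12.6 counts per 100 Rn7sk counts, with overlapping groups. Rmrp per Yam1 count was also higher in every HSPA1A library (0.0200 to 0.0267 per 100) than in every control library (0.00936 to 0.0134 per 100), while Rn7sk per Yam1 count overlapped between the groups.

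**Figure D2:**
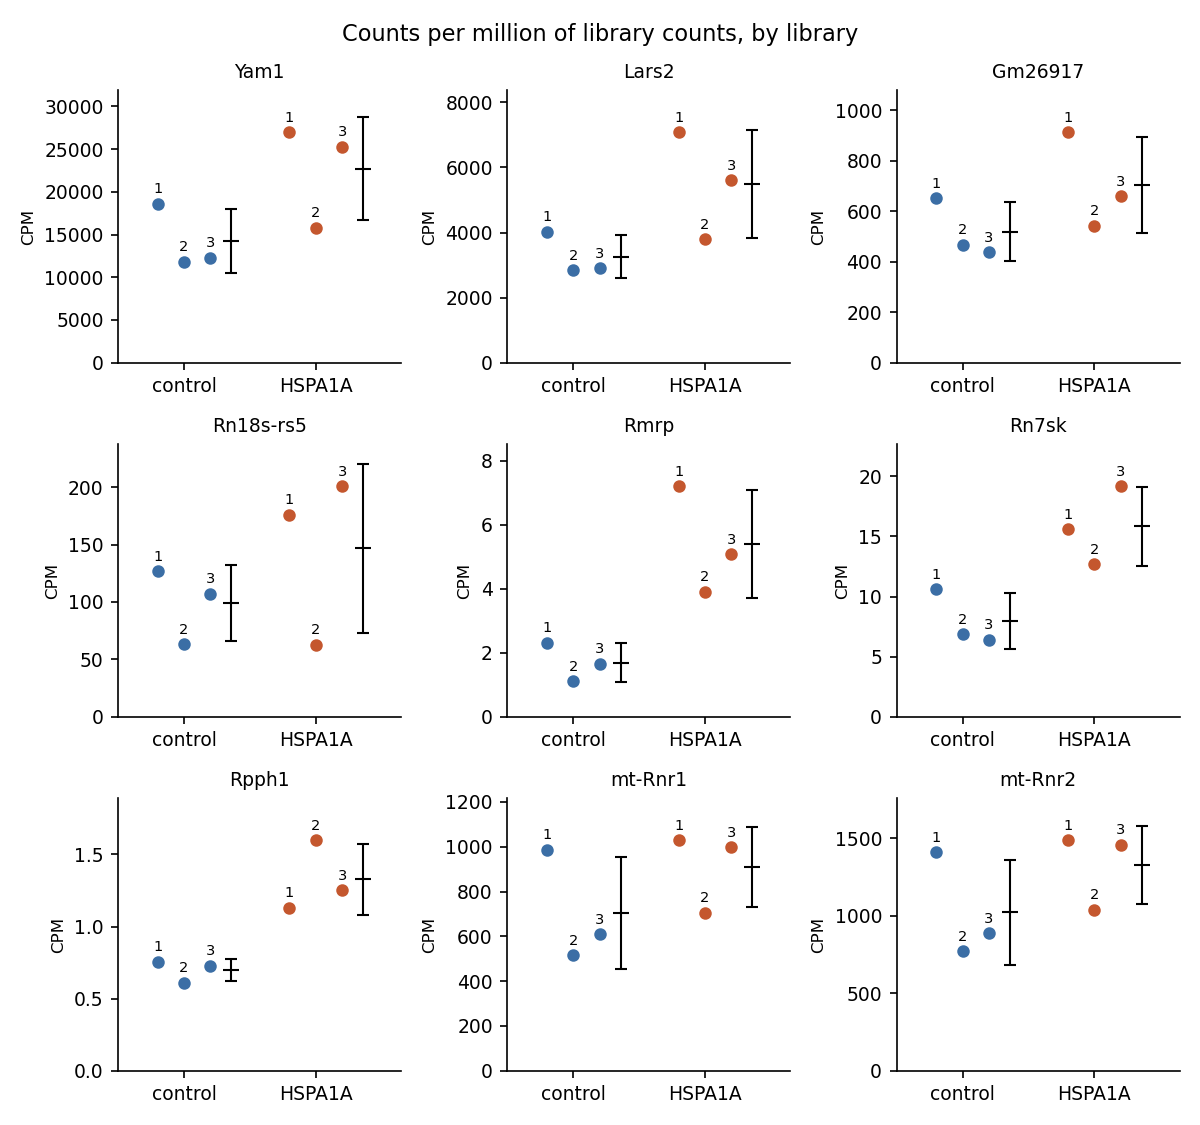
CPM of each of the 9 RNAs, with 1 point per library and the replicate number above it. Blue points are control and red points HSPA1A libraries, and black bars are the mean and SD of 3 libraries. Every HSPA1A library lies above every control library for Rmrp, Rn7sk and Rpph1, and the groups overlap for the other RNAs.

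Summed, the 9 RNAs took 2.58%, 1.64% and 1.73% of the counts in the control and 3.78%, 2.2% and 3.42% in the HSPA1A libraries. The means were 1.98 ± 0.518% and 3.13 ± 0.828% (SD, n = 3 each), a difference of 1.15 percentage points, and the groups overlapped because HSPA1A replicate 2 was below control replicate 1. Without that replicate the difference was 1.62 points. Yam1 carried most of the sum: without it the difference was 0.299 points. The polymerase III transcripts together came to 10.3 ± 2.88 CPM in controls against 22.5 ± 3.85 CPM with HSPA1A (SD, n = 3 each), without overlap.

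Read against all genes, edgeR called 0 of the 9 RNAs at an adjusted p under 0.05, where it called 0.179% of all tested genes and 0.0234% higher, and 6 of the 9 were under an unadjusted p of 0.05, where 8.59% of all genes were. DESeq2 called Rmrp and Rn7sk, both higher, where it called 0.581% of the genes it tested, and limma-voom called none of the 9. With HSPA1A replicate 2 left out, edgeR called 8 of the 9 higher, all but Rpph1, where it called 5.27% of all genes higher and 4.94% lower. With the replicate number as a block it called Lars2 and Rmrp, where it called 0.125% of all genes. The 3 polymerase III transcripts were among the 4.26% of tested genes with every HSPA1A library above every control library. The opposite order, with all HSPA1A values under all control values, was more frequent, at 11.0% of tested genes. Since the RNAs were chosen on this contrast, nothing is read from these counts.

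The pattern over the 6 libraries was compared between RNAs as the root mean square difference of log2 CPM, each centred on its own mean, so that a smaller value is a closer pattern. The closest were mt-Rnr1 with mt-Rnr2 at 0.02 and Yam1 with Lars2 at 0.091. Yam1 was at 0.166 from mt-Rnr2, 0.186 from Gm26917 and 0.227 from Rn7sk. Rn18s-rs5, the other strand of Yam1, was farther from it, at 0.374, and Rmrp at 0.524. All of these share the same 6 libraries and their depths, so they are descriptions.

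**Figure D3:**
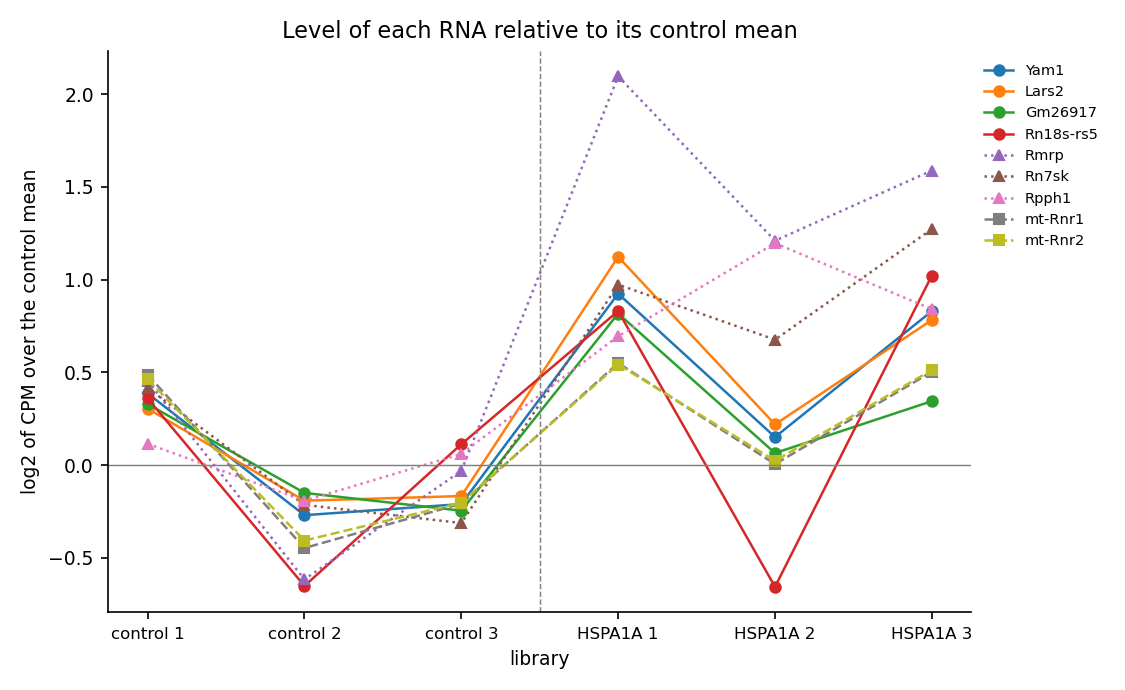
Level of each of the 9 RNAs in each library as log2 of its CPM over its own control mean. Lines join the values of 1 RNA and imply no order of the libraries. Solid lines are the group called ribosome-locus transcripts, Lars2 included by that label only. Dashed lines are mitochondrial rRNAs and dotted lines polymerase III transcripts. Control replicate 1 is the highest control library for all 9, and HSPA1A replicate 2 is the lowest HSPA1A library for all but Rpph1.

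**Figure D4:**
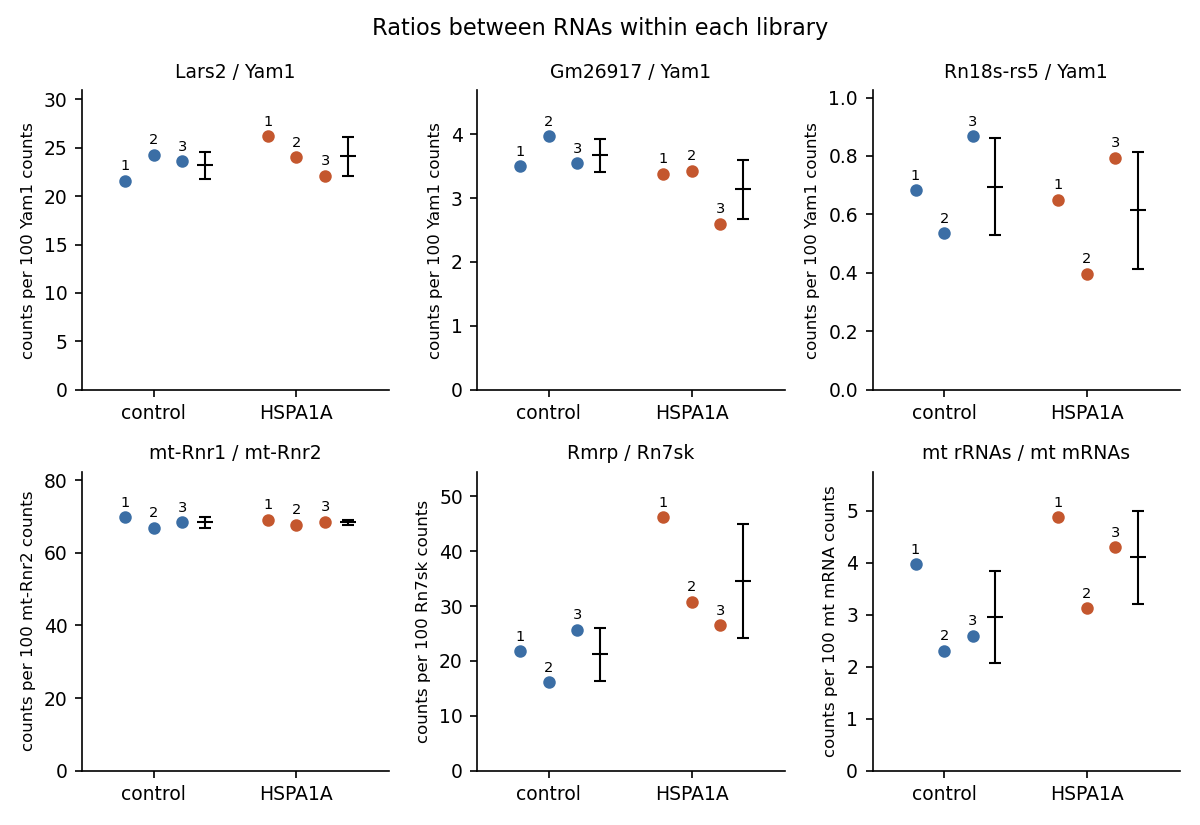
Counts of 1 RNA per 100 counts of another within each library, with the mean and SD of 3 libraries in black. Lars2 per Yam1 stays between 21.6 and 26.2 and mt-Rnr1 per mt-Rnr2 between 66.9 and 69.8, while Rmrp per Rn7sk is higher in the HSPA1A libraries.

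Outside the set, the genes closest to Yam1 among 9709 candidates with a mean of at least 5 CPM were Gm23935 at 0.189 and Gm24270 at 0.194, where the median candidate was at 0.49. H2-M10.1 (0.247), Taf7l (0.282) and Mamdc2 (0.291) came next. Among 11612 candidates with a mean of at least 1 CPM, Rmrp was closest to Gm24187 at 0.493, followed by Hpx and Gm23935. The short genes among these are printed because they are copies of one sequence of 57 bases, all annotated as miRNA genes. Gm23935 is at chr16:11144125-11144181 (plus strand), Gm24270 at chr9:56223715-56223771 (minus) and Gm24187 at chr13:9834469-9834525 (minus). The sequences are identical except for G11A in Gm24187, counted from the first base of Gm23935 and marked by a capital.
Gm23935: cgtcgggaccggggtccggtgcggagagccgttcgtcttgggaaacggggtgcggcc
Gm24270: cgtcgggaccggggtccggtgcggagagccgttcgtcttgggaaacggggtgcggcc
Gm24187: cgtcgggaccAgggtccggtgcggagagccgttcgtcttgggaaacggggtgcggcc
No transcript of the 9 RNAs held 20 bases of this sequence on either strand. Gm23935 stood at 729, 529 and 503 CPM in the control and at 1170, 767 and 810 CPM in the HSPA1A libraries. Every HSPA1A library was above every control library, as in 4.26% of tested genes, and its counts per 100 Yam1 counts lay between 3.2 and 4.85. Gm23935 was picked for its likeness to Yam1, so both follow in part from that choice and are descriptions. Gm24270 had 321, 230 and 224 counts in control and 463, 352 and 346 counts in HSPA1A libraries. Reads that fit several copies cannot be assigned to 1 of them, so the split between the copies is uncertain.

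The proteins and RNAs that work with the 9 RNAs were examined in 15 lists with 254 tested genes. edgeR called none of the 254 in either direction, where it called 0.179% of all genes, and 18 were under an unadjusted p of 0.05, where 8.59% of all genes were. DESeq2 called Hist1h2bc and Neat1, where it called 0.581% of all genes it tested, and limma-voom called none. Without HSPA1A replicate 2, edgeR called 40 of 256, where it called 10.2% of all genes.

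The protein partners of the polymerase III RNAs stayed near the median of all genes, 0.0029 on the log2 scale. Of the 12827 tested genes, 6544 had a positive log2 fold change. The 11 proteins of RNase P and RNase MRP had a median log2 fold change of 0.043, with 8 positive, and Rpp38, a subunit of both enzymes, had the smallest p among them. Rpp38 stood at 33.9, 31.1 and 33.3 CPM in control and 36.3, 35.7 and 36.9 CPM in HSPA1A libraries, a log2 fold change of 0.18 ± 0.06 SE (edgeR adjusted p = 0.476). The 7 genes of the 7SK particle and P-TEFb had a median of 0.012. Cdk9, the kinase of P-TEFb, had a log2 fold change of -0.09 ± 0.05 SE (adjusted p = 0.657). RNA polymerase III and its factors (30 genes) had a median of -0.0027, with Snapc5, of the complex that binds small nuclear RNA promoters, at 0.27 ± 0.10 SE (adjusted p = 0.51). Snapc3, of the same complex, went the other way, at -0.24 ± 0.10 SE (edgeR adjusted p = 0.553).

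Genes for making and removing rRNA gave small values as well. The 21 genes of RNA polymerase I and its factors had a median log2 fold change of 0.029, or -0.0084 with library totals alone. Of these, 17 were positive, beside 6544 of all 12827 tested genes. Taf1d, a subunit of the polymerase I promoter factor, was at 0.16 ± 0.05 SE (edgeR adjusted p = 0.485). The 45 rRNA processing factors had a median of 0.057, with 36 positive and none called. Without HSPA1A replicate 2 that median was 0.14 and 16 of the 45 were called higher and none lower, beside 5.27% of all genes higher and 4.94% lower. Without HSPA1A replicate 1 or 3 it was 0.01 or 0.019 with none called, and limma-trend on log2(FPKM + 1) turned it to -0.0044. With library totals alone it was 0.019. The 20 genes of the RNA exosome and of the tailing of aberrant RNA had a median of 0.047, which limma-trend on log2(FPKM + 1) turned to -0.011. Without HSPA1A replicate 2, 7 of the 20 were called higher and 1 lower. Papd7 had the smallest p of this list in all 6 libraries, with 31.5 ± 1.37 CPM in controls against 26.5 ± 2.42 CPM with HSPA1A (SD, n = 3 each). Its log2 fold change was -0.21 ± 0.07 SE (edgeR adjusted p = 0.477). Exosc8, a core exosome subunit, came next, at 75.4 ± 1.29 CPM in controls against 84.7 ± 6.43 CPM with HSPA1A (SD, n = 3 each). Its edgeR adjusted p was 0.477 in all 6 libraries.

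Classes of RNA outside the set that mostly lack a long poly(A) tail did not all resemble the 9. The 19 tested small nucleolar and Cajal body RNAs, which guide the modification of rRNA and small nuclear RNA, had a median log2 fold change of 0.00048. Summed over all 96 with counts, tested or not, their level of 25.2 to 29.4 CPM overlapped between the groups. Of the other polymerase III and small nuclear RNAs only Rny3, a Y RNA, had enough counts, with 18, 9 and 33 in control and 18, 12 and 41 in HSPA1A libraries. The 8 mitochondrial tRNAs tested ran from -0.76 to 1.04 on the log2 scale around a median of 0.22. The 15 replication-dependent histone genes, whose main mRNAs end in a stem-loop in place of a tail, had a median of 0.42. Of these genes 13 were positive, beside 6544 of all 12827 tested genes. The histone median was 0.28 without HSPA1A replicate 3, 0.24 over the 3 genes left by a filter of 5 CPM and 0.16 with limma-trend on log2(FPKM + 1). The summed level of all 63 histone genes with counts was 98.7, 95.3 and 97.9 CPM in control and 111, 113 and 125 CPM in HSPA1A libraries, without overlap. Hist1h2bc had the smallest p, with 19.7 ± 1.29 CPM in controls against 25.7 ± 1.89 CPM with HSPA1A (SD, n = 3 each) and an edgeR adjusted p of 0.141.

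The nuclear long noncoding RNAs, 7 genes, had a median log2 fold change of 0.0038. Neat1, the scaffold of paraspeckles, was at 176, 188 and 190 CPM in control and 130, 145 and 161 CPM in HSPA1A libraries, lower in every HSPA1A library (log2 fold change -0.31 ± 0.08 SE, edgeR adjusted p = 0.308). Such a separation was not rare: in 11.0% of tested genes, Neat1 among them, the HSPA1A values all lay under the control values. The snoRNA host genes (11) had a median of -0.018. The 30 genes of mitochondrial transcription and RNA handling had one of 0.035, with none called in either list.

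**Figure D5:**
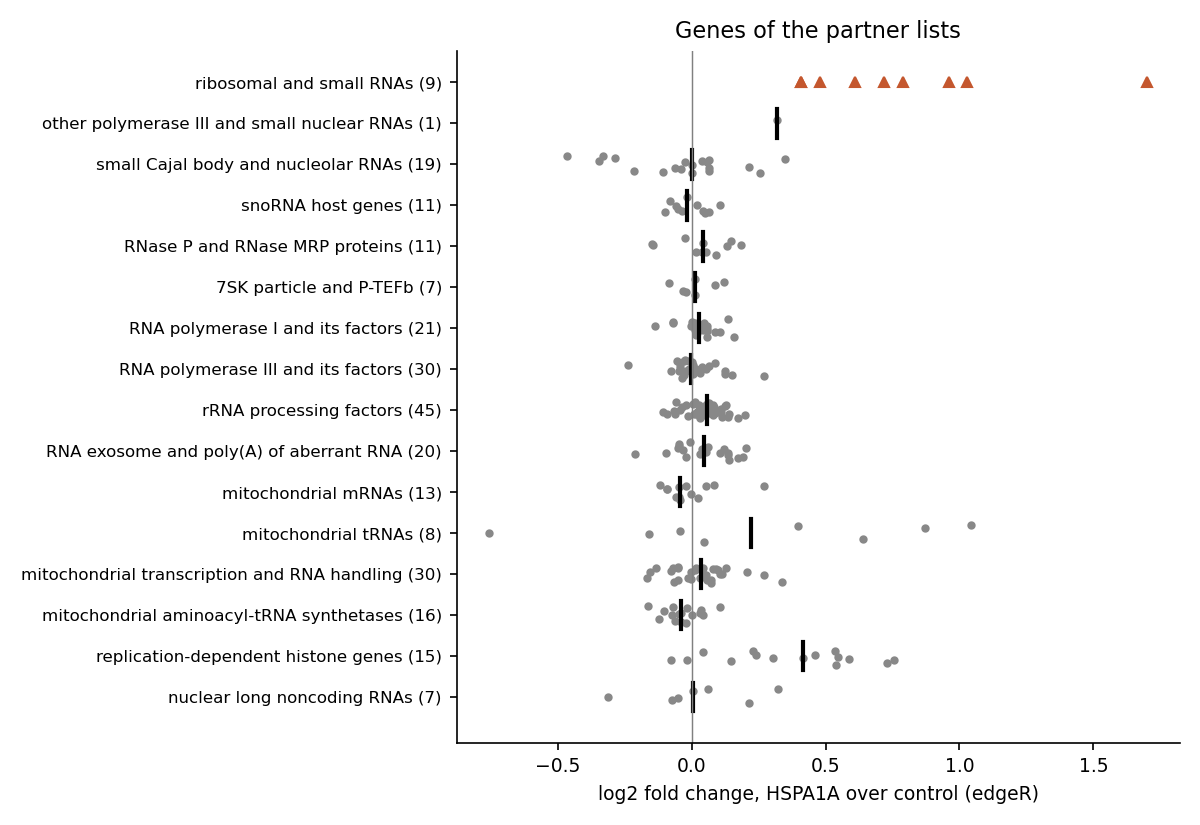
Log2 fold change of HSPA1A over control by edgeR for the 9 RNAs (red triangles) and for the tested genes of 15 lists (grey points, number tested in brackets, black bar the median). The 9 RNAs, chosen on this contrast, lie from 0.41 to 1.70, and the list medians from -0.042 to 0.42.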

How the data were processed

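Polyadenylated RNA of 6 HL-1 samples was sequenced from a stranded kit, per the labels' protocols. Tools named in the submitters' processing notes are bcl2fastq, TopHat2 and edgeR, with the build GRCm38. Not given in the sources used here are the program that counted reads, the strand option and the annotation used. What the authors deposited was whole read counts for 22913 genes and FPKM, scaled by length and depth, for 22833 genes. Each table has 6 columns, 1 for a sample, of which 0 were not used.

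The total counts per library ran from 23849656 to 26897086. CPM are counts per 1000000 of these totals. Genes were kept by filterByExpr (minimum count 10, minimum total 15), which left 12827, and were compared with TMM factors and edgeR 4.0.16's quasi-likelihood test under R 4.3.3, with Benjamini-Hochberg adjustment at 0.05. Every SE is from that fit. On simulated counts for this comparison over 12827 genes, 75.3% of genes with a simulated 1.5-fold change were called, 88.7% of those with a 2-fold change and 0.0581% of the unchanged ones. The simulated spread followed the fitted trend alone, with no outlying library such as HSPA1A replicate 2. These shares therefore need not hold for the real libraries, and a gene not called is not shown to be unchanged. Alternatives were DESeq2 1.42.0, limma-voom and limma-trend (limma 3.58.1), other scalings and filters, the replicate number as a block and each library left out. Sequences and positions came from GENCODE M21 on GRCm38. Deposited names and M21 names were joined by gene identifier.

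The 9 RNAs and the 15 gene lists were chosen with earlier results of these data known, so the fold changes of the 9 RNAs are given without a test. Of each list, up to 4 called genes, or otherwise up to 2 with the smallest p, were named by rule. The genes most like Yam1 (5, at a mean of at least 5 CPM) and most like Rmrp (3, at 1 CPM) were chosen by the root mean square difference of centred log2 CPM. Other genes were named after their values had been seen. The labels do not say whether replicates were separate cultures, so the spread behind each p-value may be technical.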

Additional observations from a re-analysis of the deposited data

How the results depend on the processing

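The fold changes of the 9 RNAs were positive in all 142 values computed under an alternative. The RNAs were chosen on this contrast and each alternative reuses these libraries, so the shared sign is no separate support. Of these, 141 moved by less than the spread between replicates, and 1, that of Rpph1 with log2(FPKM + 1), moved to 0.66. Leaving out 1 of 3 libraries can hardly shift a group mean by that spread, and other scalings reuse the same counts. Most of these values could therefore hardly have moved, and the 141 are no support. The ranges ran from 1.43 to 2.0 for Rmrp, from 0.85 to 1.3 for Rn7sk, from 0.66 to 1.05 for Rpph1, from 0.57 to 0.96 for Yam1, from 0.56 to 1.01 for Lars2, from 0.25 to 0.68 for Gm26917, from 0.3 to 0.98 for Rn18s-rs5, from 0.23 to 0.74 for mt-Rnr1 and from 0.24 to 0.72 for mt-Rnr2. The difference in the summed share of counts was 0.299 percentage points without Yam1, and 0.829 to 1.62 points with 1 library left out.

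Over all genes, 3 were called higher and 20 lower. The number called higher was 1 with RLE size factors, 1 with library totals, 1 when normalised without the 9 RNAs, 1 with a filter of 5 CPM, 26 with DESeq2, 94 without a filter, and 0 with log2(FPKM + 1) or log2(FPKM + 0.1). The number called lower was 37 with DESeq2 and 111 without a filter. With 1 library left out, 0 to 683 were called higher and 10 to 640 lower, and the highest values were those without HSPA1A replicate 2. With the replicate block, 3 were called higher and 13 lower, although same-numbered libraries did not deviate together (correlations of -0.1, 0.0 and 0.08), so the numbers were not taken to pair the samples. The cause of these shifts was not tested. Of 238 list medians under an alternative, 15 moved. Rpph1 and Rny3 had fewer than 50 counts in every library, so small differences in them were not detectable at this depth.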

Other observations

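Genes annotated as miRNA summed to 786, 569 and 562 CPM in the control and to 1260, 807 and 899 CPM in the HSPA1A libraries, higher in every HSPA1A library. Most of this sum is Gm23935, at 503 to 1170 CPM, which was named above for its likeness to Yam1. Genes annotated as rRNA other than Rn18s-rs5, 18 in number, summed to only 0.774 to 2.05 CPM in any library. Genes annotated as lincRNA other than Yam1 and Gm26917 summed to 2020 ± 59.8 CPM in controls against 2020 ± 97.4 CPM with HSPA1A (SD, n = 3 each), and the 227 snoRNA genes to 35.4 ± 0.933 and 35.7 ± 2.05 CPM.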
